A study of Mus musculus with 8 samples.

Results

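Genes of the major histocompatibility complex (MHC) and of the antigen processing machinery were followed in mouse brown adipose tissue (BAT), the heat-producing fat depot. The members were chosen by symbol: every gene starting with H2-, together with B2m, Cd74, Ciita, Tap1, Tap2, Tapbp, Nlrc5, Psmb8, Psmb9 and Psmb10. Symbols marked -ps for pseudogene were left out, while H2-Bl and H2-T10, annotated as polymorphic pseudogenes, were kept. This rule found 46 of the 49452 genes listed, of which 41 lie on chromosome 17. They comprised 27 class I genes (2 classical heavy chains, 24 class Ib heavy chains and the light chain B2m), 6 genes that supply peptides to class I, 10 class II genes (4 chains and 6 that load peptides), the regulators Nlrc5 and Ciita, and H2-Ke6, which carries an H2 name but encodes a hydroxysteroid dehydrogenase.

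RNA-Seq libraries of BAT were made from male C57BL/6 mice, with 2 libraries in each of 4 groups. Mice housed at 22 °C (replicates 4 and 7) were compared with mice kept in the cold (4 °C, 24 h) (replicates 2 and 11), all 10 to 12 weeks old, and mice on a control diet (CD, replicates 6 and 8) with mice on a high-fat diet (HFD, replicates 2 and 6), all 32 weeks old after 28 weeks of feeding. The cold-exposed mice were fasted for the last 4 h, and the sources do not make clear whether the 22 °C mice were. The labels call the CD food chow where the study describes a matched control diet, so the group is called CD here. No group carries a transgene or a deletion, and each comparison was made within its own experiment.

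Class I molecules are displayed by nearly all nucleated cells. The proteasome cuts cytosolic proteins into peptides, the transporter formed by TAP1 and TAP2 carries them into the endoplasmic reticulum, and tapasin (Tapbp) helps to place them on a heavy chain paired with β2-microglobulin (B2m). Class II molecules are made mainly by macrophages, dendritic cells and B cells. Their α and β chains travel with the invariant chain (Cd74), and H2-DM exchanges its remnant for a peptide from the endosome. NLRC5 and CIITA drive transcription of class I and class II genes from promoters that share an X box and a Y box, and interferon γ raises both sets. C57BL/6 mice carry a haplotype with no H2-L and no class II E molecule, and the table lists H2-D1 and H2-L as 1 joint entry, H2-D1;H2-L.

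RefSeq promoter sequences (GRCm38.p6, from 250 bases before to 50 after each start site) were found for 37 of the 46 members, and 4 short motifs were searched on both strands. The letters TGATTGG, a form of the Y box, were present in 7.82% of all 32851 promoters, 4.01% in the direction of the gene and 4.08% in the opposite one. They were found in 7 of the 8 class II genes with a promoter, each time in the direction of the gene. They were also found in 15 of the 23 class I genes, in 14 of them in the opposite direction and in 1, H2-T22;H2-T9, in the direction of the gene. Stretches from −110 to −31, counted in bases from the start site, are shown 5′ to 3′ along the gene, first for class II and then for class I, with these letters in capitals on either strand.
H2-Aa (chr17:34287854-34287933, minus strand): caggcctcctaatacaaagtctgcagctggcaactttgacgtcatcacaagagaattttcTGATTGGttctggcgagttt
H2-Eb1 (chr17:34305757-34305836, plus strand): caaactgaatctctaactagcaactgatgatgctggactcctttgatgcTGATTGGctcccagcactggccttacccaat
H2-DMb1 (chr17:34153081-34153160, plus strand): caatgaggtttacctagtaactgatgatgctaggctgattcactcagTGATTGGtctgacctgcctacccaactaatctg
H2-D1 (chr17:35262984-35263063, plus strand): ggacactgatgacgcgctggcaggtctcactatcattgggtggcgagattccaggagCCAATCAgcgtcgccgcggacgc
H2-Q4 (chr17:35379507-35379586, plus strand): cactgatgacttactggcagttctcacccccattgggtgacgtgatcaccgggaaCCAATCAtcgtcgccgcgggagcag
H2-T23 (chr17:36032732-36032811, minus strand): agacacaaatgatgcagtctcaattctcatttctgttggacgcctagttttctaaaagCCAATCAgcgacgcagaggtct

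In these stretches TGATTGG, read on either strand, began at −50 in H2-Aa, −61 in H2-Eb1, −63 in H2-DMb1, −53 in H2-D1, −55 in H2-Q4 and −52 in H2-T23. The shorter letters ATTGG, which 8.998% of all promoters hold in the direction of the gene in a stretch of this length, also began at −76 in H2-D1 and at −79 in H2-Q4 in that direction. In the class II gene H2-Eb1 they also began at −35 in the opposite direction, in which 8.69% of all promoters hold them. An exact search therefore cannot say which of these letters is the Y box of H2-D1, H2-Q4 or H2-Eb1. No difference in orientation between the classes is read from it. A κB-type motif, GGGNNTTCC, was present in 8 members against 5.82% of all promoters. Of these, 6 were class I genes, H2-K1, H2-D1, H2-Q4 and H2-Q7 among them. An interferon-response motif, GAAANNGAA, was present in 3 members, B2m, H2-T23 and H2-T22;H2-T9, against 8.56% of all promoters. The X box letters ACAGATG were present in 4 members against 5.01% of all promoters. A match describes the letters in this window and is not a measured binding site.

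Tap1, a subunit of the peptide transporter, and Psmb9, a catalytic subunit of the immunoproteasome, start in opposite directions from a shared stretch. The 225 bases between their RefSeq start sites are shown on the plus strand, in the direction of Tap1, with TGATTGG on the opposite strand in capitals.
Tap1 and Psmb9 (chr17:34187331-34187555, plus strand): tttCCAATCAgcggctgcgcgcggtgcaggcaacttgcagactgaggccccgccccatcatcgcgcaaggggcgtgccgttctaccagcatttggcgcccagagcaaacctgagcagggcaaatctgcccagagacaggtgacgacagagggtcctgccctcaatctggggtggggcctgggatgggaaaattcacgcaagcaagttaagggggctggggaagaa

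The labelled tissue was checked against its markers. The 7 brown adipocyte markers were all at 0.1 FPKM or more in every library, with sums from 6058 to 15555 FPKM (fragments per kilobase, scaled to a library's mapped fragments, which allows levels to be compared between genes). The study counts Adipoq and Fabp4, both in this list, among common adipose markers. Fabp4 alone had 3469 to 7595 FPKM, so the sum by itself does not separate brown from white fat. Ucp1 had 699 to 6462 FPKM. Markers of other cells were present too. The 8 macrophage markers summed to between 39.4 and 247 FPKM, the 8 dendritic cell markers to between 5.46 and 15.2, the 6 B cell markers to at most 1.24, the 8 T and NK cell markers to at most 2.23, and 9 skeletal muscle markers to between 14.6 and 4353. The satellite-repeat gene Gm10800 exceeded 100 FPKM in HFD replicate 2, CD replicate 8, 22 °C replicate 4 and 4 °C replicate 11 and stayed under it in the other library of each group. This split is called library type here. It is uneven: Gm10800 had 447 FPKM in 4 °C replicate 11 but 6464 in 22 °C replicate 4, 9038 in CD replicate 8 and 15726 in HFD replicate 2. In whole tissue, a lower share of a cell type and less RNA per cell cannot be told apart.

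In the order of mean level over the 8 libraries, B2m stood first at 368 FPKM, followed by the classical heavy chains H2-D1;H2-L at 136 and H2-K1 at 111. The invariant chain Cd74 came next at 49.2, then H2-Ke6 at 44.1, the class Ib gene H2-Q10 at 37.5 and the class II chains H2-Aa at 33.1, H2-Eb1 at 22.2 and H2-Ab1 at 19.1. The neighbours H2-D1;H2-L and H2-K1 overlapped across libraries (46.4 to 223 against 39.0 to 165 FPKM), as did H2-Eb1 and H2-Ab1 (10.9 to 31.8 against 9.46 to 26.2). Of the 46 members, 26 had a mean of at least 1 FPKM. Another 16 stayed under 0.2 FPKM in every library, among them H2-Eb2, H2-Oa and most H2-M genes, and H2-M10.4 and H2-M10.6 were listed at 0 throughout. An exact 0 in this table can be a missing estimate.

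**Figure D1:**
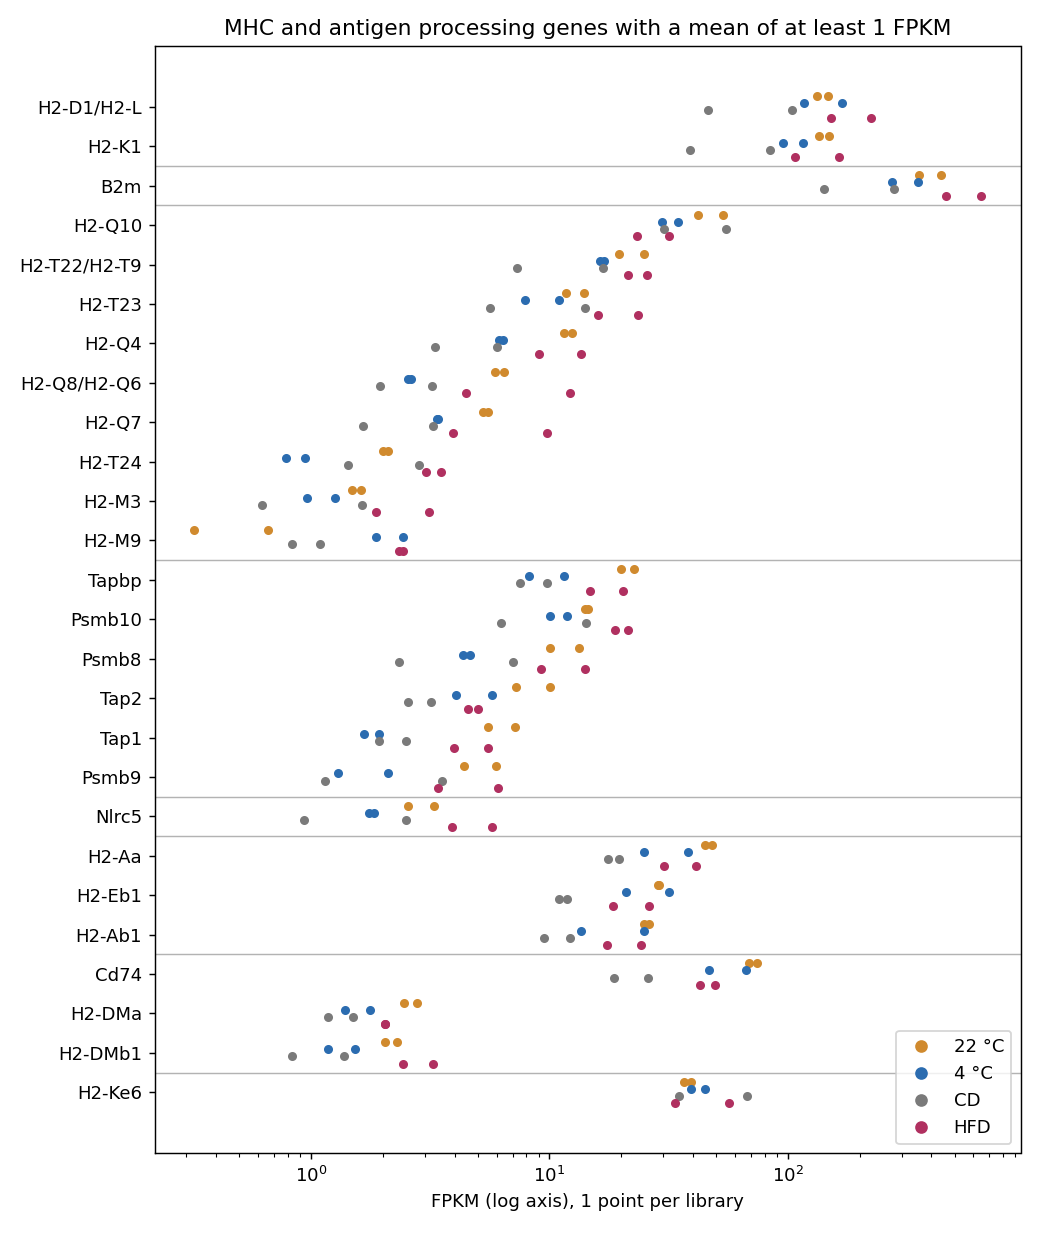
FPKM on a log axis of the 26 members with a mean of at least 1 FPKM, 1 point per library, coloured by group, with lines between functional classes. For most genes the 22 °C points lie above the 4 °C points and the HFD points above the CD points, and H2-M9 is the member with both 4 °C points above both 22 °C points.

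The first comparison asked how these genes stood after 24 h at 4 °C. Tap1 (chr17:34187553-34197225) had 5.53 and 7.18 FPKM at 22 °C but 1.67 and 1.92 at 4 °C. The groups did not overlap, and Tap1 fell by 1.39 on the log2 scale of FPKM + 1 (SE 0.20, adjusted p 0.0467, limma). It was the 1 member of 30 tested that was past threshold (adjusted p under 0.05 and a change of at least 2-fold), against 1.44% of the 17477 genes tested. Without 4 °C replicate 2 it fell by 1.32 (adjusted p 0.124) and without replicate 11 by 1.46 (adjusted p 0.061), so it did not pass, and without replicate 2 only 1 of 16819 genes passed at all.

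The other genes of peptide supply were also lower at 4 °C in both libraries but did not pass. Psmb8, which replaces a constitutive catalytic subunit in the immunoproteasome, had 10.09 and 13.3 FPKM at 22 °C but 4.32 and 4.66 at 4 °C (log2 fold change −1.20, SE 0.21, adjusted p 0.0561). Psmb9, a second immunoproteasome subunit, had 4.39 and 5.95 against 2.11 and 1.29 (−1.20, SE 0.24, adjusted p 0.0658). Tapasin (Tapbp), which bridges the transporter and the heavy chain, had 19.9 and 22.7 against 8.18 and 11.5 (−1.05, SE 0.23, adjusted p 0.0785). The 22 °C and 4 °C libraries did not overlap for any of these. Tap2, the partner of Tap1, had 7.23 and 10.03 against 5.72 and 4.07, and Psmb10, the remaining immunoproteasome subunit, had 14.0 and 14.5 against 11.9 and 10.05, with adjusted p of 0.17 and 0.314. Exons of Tap1 and Psmb9 overlap on opposite strands, and whether the FPKM were counted by strand is not stated in the sources used here. Exons of Tapbp overlap Zbtb22 on the same strand, and those of Psmb8 and Tap2 overlap the antisense gene Gm20496.

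The class I chains did not pass. H2-K1 had 135 and 148 FPKM at 22 °C but 116 and 95.4 at 4 °C (log2 fold change −0.42, adjusted p 0.352), and B2m had 437 and 355 against 353 and 272 (−0.35, adjusted p 0.532). With 1 library left out the change of H2-K1 ran from −0.56 to −0.28 and that of B2m from −0.53 to −0.16. H2-D1;H2-L had 132 and 147 against 169 and 117, and the groups overlapped. Its log2 fold change was 0.01 as deposited and −0.25 after the libraries were centred on their medians. Centring took the same 0.27 off the log2 fold change of each gene in the cold and 0.36 in HFD, so a value between 0 and that amount changes sign by construction. Among the class Ib chains, H2-Q8;H2-Q6 had 6.48 and 5.90 FPKM against 2.55 and 2.63 (−1.001, adjusted p 0.0561), H2-Q4 had 11.5 and 12.4 against 6.13 and 6.37 (−0.84, adjusted p 0.074) and H2-T24 had 1.995 and 2.097 against 0.789 and 0.945 (−0.71, adjusted p 0.0654). These 3 class Ib genes were each lower in both cold libraries without passing.

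H2-M9, a class Ib gene, did not pass, with higher values at 4 °C. It had 0.66 and 0.323 FPKM at 22 °C but 2.43 and 1.87 at 4 °C (log2 fold change 1.08, SE 0.18, adjusted p 0.0527). With 0.1 added to FPKM in place of 1, its change was 1.98 and did not pass. It also did not pass without a filter, or after median centring, where its change was 0.82. H2-M9 did pass with a filter at 1 FPKM, after quantile normalization, with library type and with all 8 libraries in 1 fit. The cold values exceeded both 22 °C values, the only such case among the 30 members tested. The other class Ib genes averaging 1 FPKM or more, H2-Q7, H2-Q10, H2-T22;H2-T9, H2-T23 and H2-M3, ranged from −0.55 to −0.28 in log2 fold change and from 0.143 to 0.329 in adjusted p. The H2 heavy chains are close copies of each other, so fragments may have been shared between them in the FPKM.

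Class II genes did not pass either. The α chain H2-Aa had 48.0 and 45.0 FPKM at 22 °C but 38.0 and 25.0 at 4 °C (log2 fold change −0.58, adjusted p 0.255). The β chain H2-Ab1 had 26.2 and 25.0 against 25.0 and 13.6 (−0.45, adjusted p 0.429), and H2-Eb1 had 28.8 and 28.6 against 31.8 and 21.04 (−0.14, adjusted p 0.775). The H2-Eb1 libraries overlapped, and its change was 0.14 without 4 °C replicate 11. H2-Ab1 stood at −0.03 without that library and at −0.87 without replicate 2, and H2-Aa at −0.28 and −0.87. Cd74 had 74.3 and 69.0 FPKM against 66.5 and 46.9 (−0.35, adjusted p 0.45), with −0.10 and −0.60 when the same libraries were left out. H2-DMa and H2-DMb1, the chains of the peptide exchanger, had 2.46 and 2.78 against 1.77 and 1.39, and 2.04 and 2.30 against 1.54 and 1.18, with adjusted p of 0.171 and 0.198.

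The regulators did not pass. Nlrc5 had 2.56 and 3.26 FPKM at 22 °C but 1.83 and 1.75 at 4 °C (log2 fold change −0.48, adjusted p 0.185). Ciita had 0.387 and 0.467 against 0.158 and 0.177 (−0.29, adjusted p 0.0828). With 0.1 added to FPKM in place of 1, the changes of Nlrc5 and Ciita were −0.66 and −0.97, and neither passed. H2-Ke6, the dehydrogenase, had 36.8 and 39.3 against 44.8 and 39.3 and overlapped, with a log2 fold change of 0.14 (−0.13 after the shift common to all genes).

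**Figure D2:**
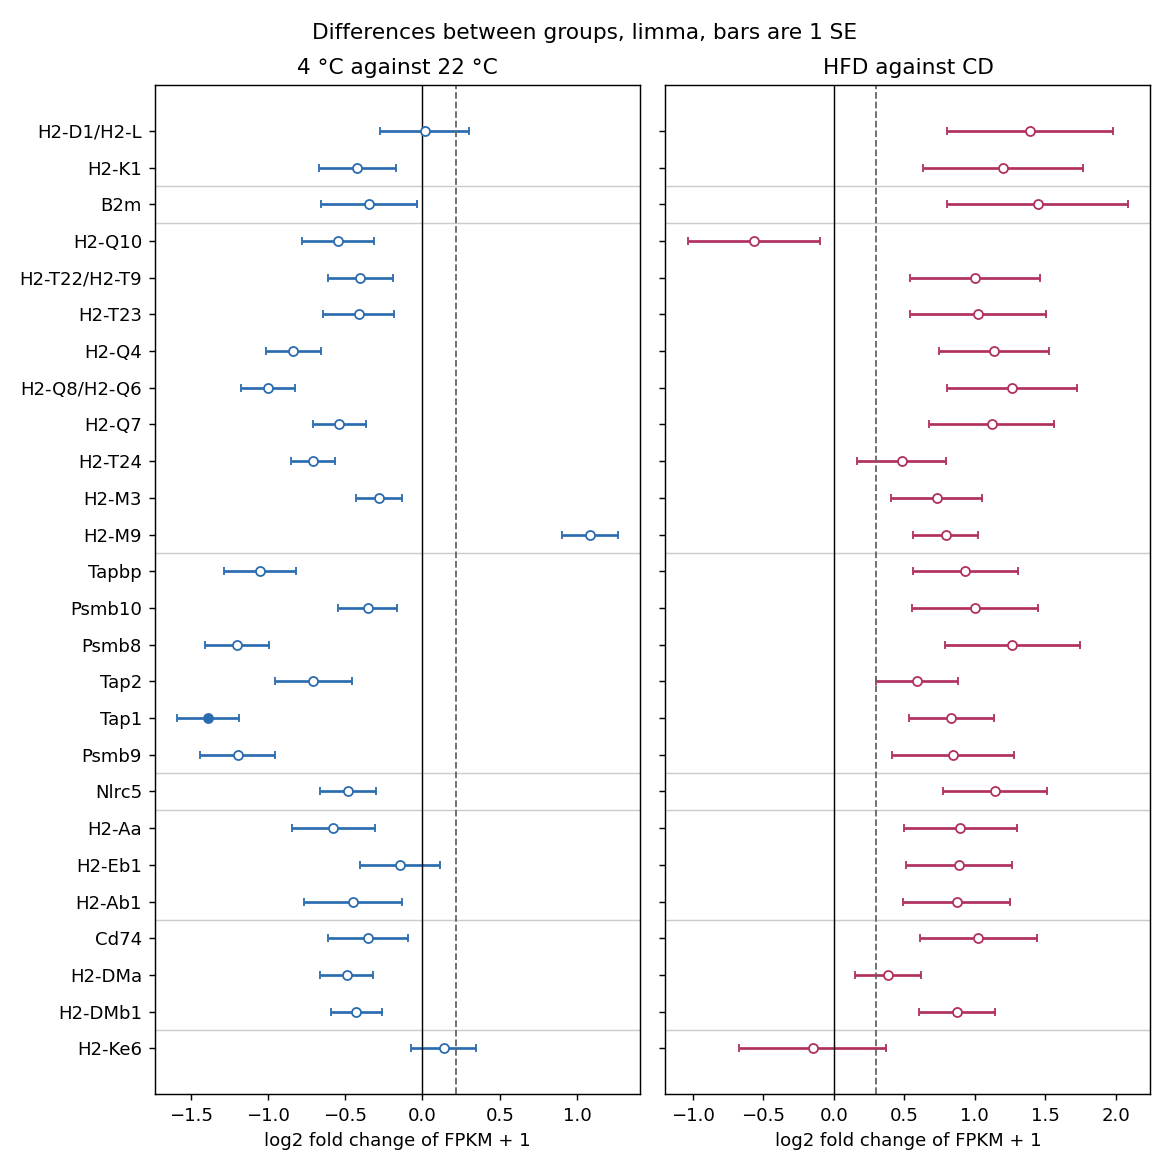
Log2 fold changes of FPKM + 1 with 1 SE for the same 26 members, 4 °C against 22 °C on the left and HFD against CD on the right. Filled points are past threshold (Tap1 in the cold), and the dashed line marks the median of protein-coding genes averaging 1 FPKM or more.

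Counted together, 26 of the 30 members tested were lower in both 4 °C libraries, against 20.6% of all genes tested, and 1 was higher in both, against 37.9%. They comprised 11 of 13 class I genes, 7 of 8 class II genes, 6 of 6 genes of peptide supply, Nlrc5 and Ciita. The median log2 fold change was −0.41 for class I, −0.39 for class II and −1.12 for peptide supply, beside 0.22 for protein-coding genes averaging 1 FPKM or more. Without 4 °C replicate 11 the class I and class II medians were −0.28 and −0.11. After median centring the 3 medians were −0.68, −0.66 and −1.39 beside −0.05, and 29 of the 30 members were lower in both cold libraries, against 49.3% of all genes tested. With library type as a covariate, Tap1, Psmb8, Psmb9 and H2-Q8;H2-Q6 passed downward (adjusted p from 0.0306 to 0.047, limma), against 0.601% of all genes, and H2-M9 passed upward (adjusted p 0.0387), 1 member of 30 against 4.31% of all genes.

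Skeletal muscle markers moved with the cold groups. All 9 were higher in both cold libraries, against 37.9% of all genes tested. Their sum was 507 and 105 FPKM at 22 °C but 4353 and 1780 at 4 °C. The 7 brown adipocyte markers summed to 6058 and 6204 against 15555 and 13544, with 5 higher and 2 lower in both cold libraries. The 5 endothelial markers summed to 73.0 and 72.6 against 80.6 and 112, with 2 higher and 1 lower. Of all genes tested, 37.9% were higher and 20.6% lower in both cold libraries, and the endothelial counts lie near those shares. The macrophage sum was 63.7 and 45.8 against 109 and 48.7, the dendritic cell sum 7.81 and 6.84 against 13.5 and 7.70, which overlapped, and all 6 B cell markers together stood at 1.24 and 0.963 against 0.482 and 0.376. The 8 T and NK cell markers summed to 2.23 and 2.17 at 22 °C but 1.56 and 1.102 at 4 °C, without overlap. The part of these cells in the lower MHC values was not tested.

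The second comparison asked how the same genes stood in mice fed a HFD. Most members were higher than in CD in both libraries, but none of the 31 tested was past threshold, against 0.0684% of 17543 genes (12 genes). At an unadjusted p under 0.05, 12 members were found, against 14.4% of all genes. When CD replicate 6 was left out, 8 members passed the threshold, against 4.22% of all genes, and 0 or 1 passed when any other library was left out. That fit keeps CD replicate 8 alone and assumes that it varies like the HFD libraries. CD replicate 8 was the lowest of the 8 libraries for 18 of the 26 members with a mean of at least 1 FPKM, and HFD replicate 6 the highest for 15. The share of all genes with these extremes was not computed, so no trait of the members is read from them. For protein-coding genes averaging 1 FPKM or more, the median log2 fold change was 0.48 without CD replicate 6 and 0.13 without CD replicate 8.

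Among class I chains, B2m had 280 and 142 FPKM in CD against 459 and 646 in HFD (log2 fold change 1.45, SE 0.64, adjusted p 0.363). H2-D1;H2-L had 104 and 46.4 against 152 and 223 (1.39, SE 0.59, adjusted p 0.341), and H2-K1 had 84.1 and 39.0 against 108 and 165 (1.20, SE 0.57, adjusted p 0.392). The groups did not overlap for these genes, and the CD libraries lay further from each other than the 22 °C libraries did. Leaving out CD replicate 8, the lower CD library for each, makes these log2 fold changes smaller. H2-Q8;H2-Q6 had 3.23 and 1.96 FPKM against 4.47 and 12.2, H2-Q7 had 3.25 and 1.65 against 3.93 and 9.79, and H2-Q4 had 6.02 and 3.31 against 9.05 and 13.6. For H2-Q8;H2-Q6 and H2-Q7 the HFD libraries differed by more than 2-fold. H2-M9 had 0.829 and 1.09 against 2.43 and 2.35, with close replicates in HFD (log2 fold change 0.79, SE 0.23, adjusted p 0.2).

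H2-Q10, a class Ib gene whose product is secreted, had 55.1 and 30.3 FPKM in CD against 23.4 and 31.7 in HFD. Its groups overlapped, and its log2 fold change of −0.57 (SE 0.47, adjusted p 0.626) was the only one below 0 among the 13 class I genes tested. H2-T22;H2-T9, H2-T23, H2-T24 and H2-M3 had log2 fold changes from 0.48 to 1.02 and did not overlap between the diets.

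The genes of peptide supply had log2 fold changes from 0.59 to 1.27. The highest, of Psmb8, was 1.90 without CD replicate 6 and smaller than 1.27 without CD replicate 8, its lower CD library. Psmb8 had 7.01 and 2.33 FPKM in CD against 9.21 and 14.1 in HFD (adjusted p 0.296), and Tap1 had 2.50 and 1.93 against 3.98 and 5.53 (adjusted p 0.279). Psmb9 had 3.53 and 1.14 against 3.41 and 6.08, and its groups overlapped, unlike those of the other 5. Nlrc5 had 2.51 and 0.932 FPKM against 3.92 and 5.73 (log2 fold change 1.14, SE 0.37, adjusted p 0.236).

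The class II chains had closer replicates in CD. H2-Aa had 19.5 and 17.6 FPKM against 30.4 and 41.3 in HFD (log2 fold change 0.90, SE 0.40, adjusted p 0.364). H2-Ab1 had 12.2 and 9.46 against 17.5 and 24.1, and H2-Eb1 had 10.9 and 11.9 against 18.4 and 26.0, with log2 fold changes of 0.87 and 0.89. Cd74 had 18.6 and 26.0 against 49.5 and 42.6 (1.03, SE 0.42, adjusted p 0.327). None of these overlapped between the diets. H2-DMb1 was at 1.37 and 0.833 against 2.44 and 3.25 FPKM (0.87, SE 0.27, adjusted p 0.22), whereas H2-DMb2 and H2-Ob, each below 0.5 FPKM, overlapped. Ciita had 0.175 and 0.191 FPKM against 0.244 and 0.319 (log2 fold change 0.12, adjusted p 0.579). H2-Oa entered the test only through its HFD libraries.

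Counted together, 26 of 31 members were higher in both HFD libraries, against 39.9% of all genes tested, and 0 were lower in both, against 5.8%. Without H2-Oa, which had to be higher to be tested, 25 of 30 were higher. The median log2 fold change was 1.02 for class I, 0.87 for class II and 0.89 for peptide supply, beside 0.30 for protein-coding genes averaging 1 FPKM or more. Without CD replicate 8 the class I median was 0.66. After median centring the 3 medians were 0.67, 0.51 and 0.53 beside −0.06, and 20 of the 31 were higher in both libraries, against 11.2% of all genes. With library type as a covariate, 12 members passed upward, against 3.35% of all genes. They were 8 class I genes (B2m, H2-D1;H2-L, H2-K1, H2-Q4, H2-Q7, H2-Q8;H2-Q6, H2-T22;H2-T9 and H2-T23), Cd74, Nlrc5, Psmb8 and Psmb10, with adjusted p from 0.00947 to 0.0361 (limma).

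Macrophage markers moved with the diet groups. All 8 were higher in both HFD libraries, against 39.9% of all genes tested. Their sum was 111 and 39.4 FPKM in CD against 194 and 247 in HFD. The dendritic cell sum was 6.91 and 5.46 against 13.8 and 15.2, and the B cell sum was 1.17 and 0.815 against 1.12 and 1.05. The endothelial sum was 60.7 and 60.4 against 91.4 and 89.7, without overlap. Of its 5 markers 2 were higher in both HFD libraries, near the 39.9% of all genes. The T and NK cell sum was 0.816 and 0.968 against 1.71 and 1.44, without overlap. The muscle sum was 546 and 1343 against 164 and 14.6. With library type as a covariate, 7 of the 8 macrophage markers passed upward, against 3.35% of all genes. In that fit 8 of the 9 muscle markers passed downward, against 157 of 17543 genes. The part of these cells in the higher MHC values was not tested.

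**Figure D3:**
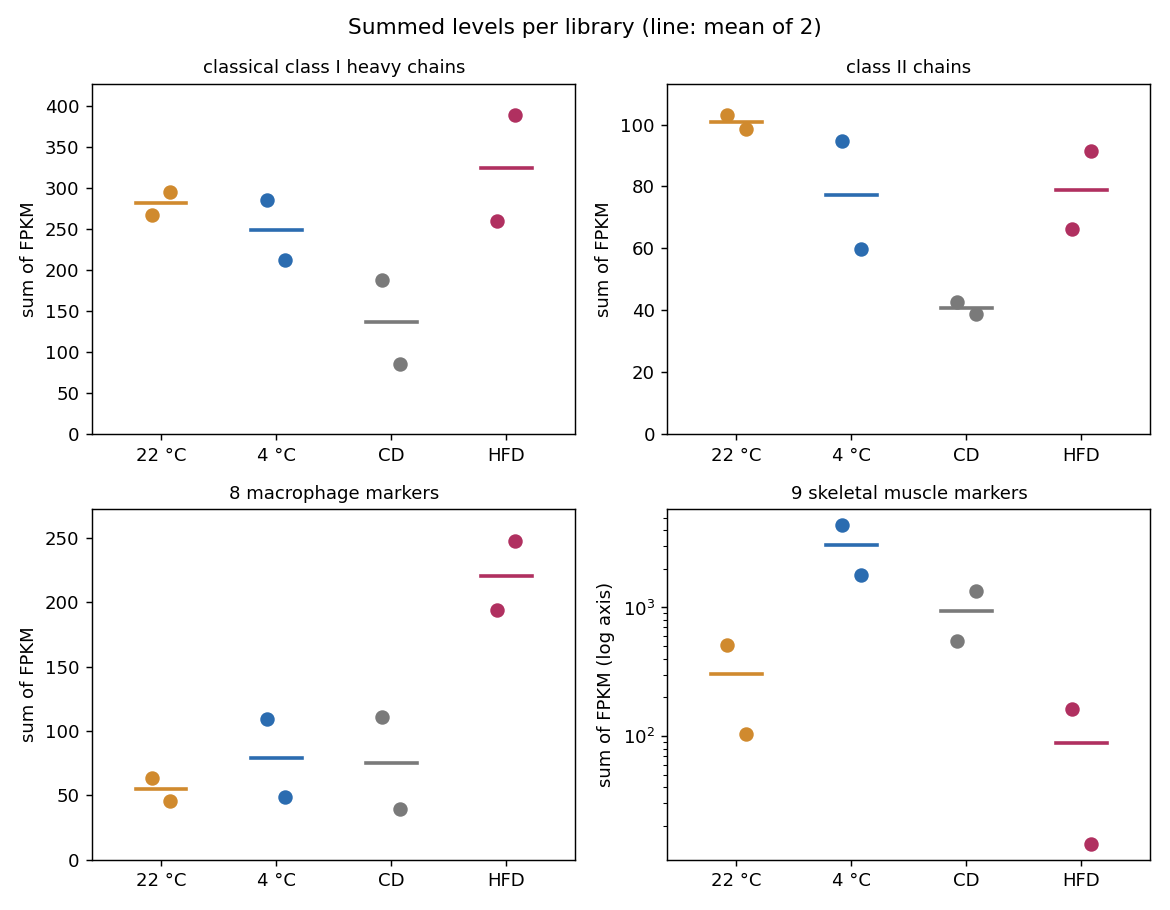
Summed FPKM per library of the classical class I heavy chains, the class II chains, 8 macrophage markers and, on a log axis, 9 skeletal muscle markers, with a line at the mean of each group. Both HFD libraries are the highest in macrophage markers, and both 4 °C libraries are the highest in muscle markers.

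Class I and class II were then compared within each library. A shared scaling factor cancels in ratios of FPKM, but not fully in means of log2(FPKM + 1). The class II chains H2-Aa, H2-Ab1 and H2-Eb1 summed to 0.386 and 0.335 of the classical class I heavy chains at 22 °C and to 0.332 and 0.281 at 4 °C. H2-Eb2, under 0.2 FPKM in every library, was left out of this sum here and in the figures. In CD the ratio was 0.228 and 0.456, and in HFD 0.255 and 0.236. The 4 °C libraries lay just below the 22 °C libraries, whereas the CD libraries enclosed both HFD libraries. The mean log2(FPKM + 1) of 6 class II genes minus that of 12 class I genes, each averaging 1 FPKM or more, was 0.05 and −0.01 at 22 °C but 0.13 and −0.18 at 4 °C. It was −0.77 and −0.07 in CD against −0.37 and −0.66 in HFD. On this second measure both pairs of groups overlapped. The chain ratio separated the cold groups only by 0.335 against 0.332. A difference between the classes was therefore not resolved in either experiment with 2 libraries a group.

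Of 8 ratios computed within a library, 3 separated the groups in both experiments. With 2 libraries a group such separation can occur without any change, so nothing is read from the count alone. The immunoproteasome subunits Psmb8, Psmb9 and Psmb10 summed to 0.178 and 0.203 of the constitutive subunits Psmb5, Psmb6 and Psmb7 at 22 °C and to 0.0604 and 0.0683 at 4 °C. In CD this ratio was 0.0919 and 0.0724, and in HFD 0.167 and 0.171. Neither pair overlapped, and an exact test of 2 libraries against 2 could not reach significance. In the cold both sides of the ratio differed from 22 °C: the immunoproteasome sum was 28.5 and 33.7 FPKM against 18.3 and 16.0, and the constitutive sum 160 and 166 against 303 and 234. In the diet experiment the constitutive sums overlapped (269 and 135 in CD, 189 and 243 in HFD). The ratio of H2-D1;H2-L to H2-K1 was 0.979 and 0.991 at 22 °C but 1.46 and 1.23 at 4 °C, and 1.23 and 1.19 in CD against 1.41 and 1.36 in HFD. H2-Aa relative to the macrophage sum was 0.753 and 0.984 at 22 °C but 0.348 and 0.514 at 4 °C. It was 0.177 and 0.446 in CD against 0.157 and 0.167 in HFD. The diets were separated only by 0.177 against 0.167, less than the distance between the CD libraries, so a difference was not resolved. Of the others, B2m over the classical heavy chains overlapped in the cold. It separated the diets (1.49 and 1.66 in CD, 1.77 and 1.67 in HFD) only by 1.660 against 1.666. H2-Eb1 over H2-Ab1 separated the cold groups (1.102 and 1.14 at 22 °C, 1.27 and 1.55 at 4 °C) and overlapped between the diets. Cd74 over the class II chains (0.437 to 0.786) and H2-Aa over H2-Ab1 (1.52 to 1.86) overlapped in both.

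**Figure D4:**
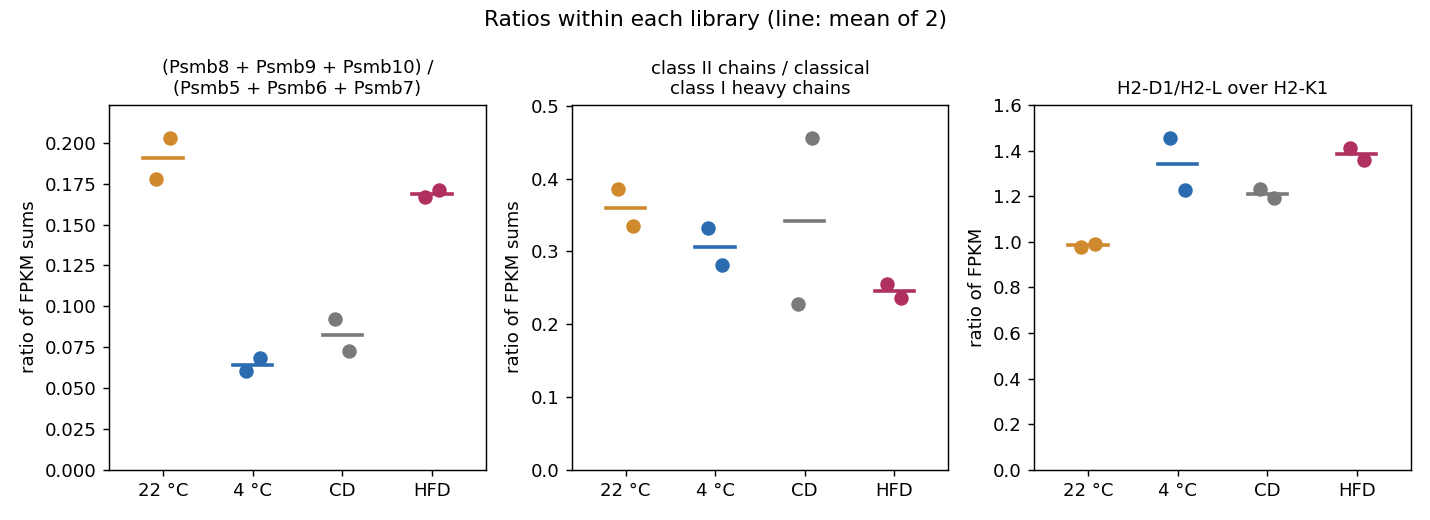
Ratios of FPKM within each library: immunoproteasome over constitutive subunits, class II chains over classical class I heavy chains, and H2-D1;H2-L over H2-K1, with a line at the mean of each group. The first ratio lies between 0.167 and 0.203 in the 22 °C and HFD libraries and between 0.0604 and 0.0919 in the 4 °C and CD libraries.

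The other genes of the pathway differed in both directions in the cold. Of 22 listed, 21 were found, and none passed in either comparison. In the cold 9 were higher in both libraries, near the 37.9% of all genes, and 8 were lower, against 20.6%. With library type as a covariate Lgmn and Psmb5 passed upward (adjusted p 0.0387 and 0.0373, limma), against 4.31% of all genes, and after median centring Erap1 and Irf1 passed downward (adjusted p 0.0181 and 0.0275), against 1.55%, joined by Psme1 and Psme2 after quantile normalization, against 1.02%. The lower ones included Erap1, which trims class I peptides (8.68 and 9.51 FPKM at 22 °C but 4.47 and 4.49 at 4 °C, adjusted p 0.065), the interferon-response factor Irf1 (log2 fold change −0.90, adjusted p 0.0823) and the X box factor Rfx5 (1.52 and 1.98 FPKM against 0.807 and 0.685, adjusted p 0.0835). The higher ones included the endosomal protease Lgmn (12.3 and 11.6 against 31.0 and 24.2, adjusted p 0.0611) and the constitutive proteasome subunit Psmb5 (39.3 and 50.2 against 137 and 80.5, adjusted p 0.109). In HFD 10 were higher in both libraries, against 39.9% of all genes, and 0 lower, against 5.8%. With library type as a covariate 4 passed upward, Calr, Ctss, Ifi30 and Lgmn, against 3.35% of all genes. The class II protease Ctss had 19.2 and 4.28 FPKM in CD against 34.7 and 53.6 in HFD (log2 fold change 2.096, SE 0.65, adjusted p 0.221). With 1 library left out its log2 fold change ran from 1.13 without CD replicate 8 (adjusted p 0.394, limma) to 3.06 without CD replicate 6 (adjusted p 8.56e-06), where it passed on the 1 CD library left. Over all alternatives its adjusted p reached 0.606.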

How the data were processed

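RNA of 8 BAT libraries was depleted of ribosomal RNA, made into directional libraries and sequenced. The submitters' processing notes name FastQC 0.10.1, TopHat2 2.0.10, STAR, Cufflinks 2.2.1, DESeq2, R 3.2.2 and GRCm38.p5, without roles. The authors deposited FPKM per gene, 1 column per library. The table also matched GENCODE M21 for 49109 of 49452 genes.

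The log2 of FPKM + 1 was tested by limma (3.58.1, trended, under R 4.3.3), using the 4 libraries of a comparison. The planned count model could not be run on FPKM. Genes needed 0.1 FPKM in 2 libraries. X, Y and mitochondrial genes were left out of the tests, because X genes are listed at 0 in 3 libraries. P-values were two-sided and Benjamini-Hochberg adjusted over all genes tested. Fold changes of low genes are understated by the added 1. Nothing in the labels says that libraries came from separate animals, so p-values measure the spread between these libraries. A library left alone in its group was assumed to vary like the other group. Members with a mean of at least 1 FPKM were named. Members and lists were chosen with earlier results of these data known. The model was tried on simulated data, and no result here rests on that.

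Total depth is not stated. In genes with 1 exon, between 97.7% and 98.5% of low values (up to 8 fragments) were whole multiples of 1 fragment within 0.1. On 2000 bases, 1 fragment is worth 0.0044 to 0.00603 FPKM (counting error only). Alternatives were another pseudocount, filters, scalings, library type, all 8 libraries in 1 fit and each library left out. Python 3.11.15 with pandas 2.3.3 was used for summaries.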

Additional observations from a re-analysis of the deposited data

How the results depend on the processing

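In the cold, 1 of 30 members passed as reported (252 of 17477 genes in all). The count was 0 without a filter (0 of 33811 genes), 4 with a filter at 1 FPKM (529 of 10943), 6 after median centring (750), 7 after quantile normalization (491), 5 with library type (859), 2 with all 8 libraries in 1 fit (439) and 6 with centring and library type together (924), an alternative added after seeing the data. With 1 library left out it was 0 to 3, where 1 to 767 genes passed in all. In HFD the count was 0 as reported (12 genes in all), 12 with library type (745), 2 with library type and centring (560), and 0 to 8 with 1 library left out (98 to 726 genes), the 8 without CD replicate 6. A count of 0 where few or no genes passed says nothing about the members. The class I median in the cold was −0.050 without a filter, −0.68 after median centring (with or without library type), −0.80 after quantile normalization and −0.53 to −0.28 with 1 library left out. That of class II was −0.66 after centring (with or without library type), −0.62 after quantile normalization and −0.57 to −0.11 with 1 library left out. In HFD the class I median was 0.085 without a filter. That of class II was 0.63 without a filter, 0.51 after centring (with or without library type), 0.57 after quantile normalization and 0.65 to 0.97 with 1 library left out. The median without a filter includes the members near 0. The cause of the other shifts was not tested.

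Centring takes the same amount off each gene (0.27 in the cold, 0.36 in HFD), so its sign changes for small values follow from that shift and say nothing of these members. The sign changed for H2-D1;H2-L in the cold (−0.25 after centring, with or without library type, −0.53 after quantile normalization and −0.25 to 0.28 with 1 library left out), for Ciita in HFD (−0.24 after centring, with or without library type, while its FPKM stayed higher in both HFD libraries), for H2-Eb1 in the cold (−0.43 to 0.14 with 1 library left out, the highest without 4 °C replicate 11) and for H2-Ke6 (in the cold −0.13 after centring, with or without library type, and −0.37 after quantile normalization; in HFD −0.61 to 0.31 with 1 library left out, above 0 without CD replicate 6 or HFD replicate 2). The other members named with a fold change kept their direction, 24 of 27 in the cold and 25 of 27 in HFD. No analysis paired by replicate number was possible because the groups compared share fewer than 2 such numbers. The fit with library type is a block of another kind, on 1 library of either type in each group, a split taken from the data and not from the labels. It estimates a further coefficient from the same 4 libraries of a comparison, so less of the spread between libraries is left to measure error. The count model was not run.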
